A study of Trichoderma reesei with 9 samples.

Results

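Rut-C30 is a strain of Trichoderma reesei, a filamentous fungus grown in industry for the enzymes it secretes to break down plant cell walls. The data described here are the 3 RNA-seq libraries of this strain among the 9 libraries of the series. The other 6 libraries come from strains with a vacuolar sorting gene deleted in Rut-C30, 3 libraries for vps13 and 3 for vps21, and are not analysed here. All mycelia were taken after 96 h on Avicel, a microcrystalline cellulose. The labels call Rut-C30 the wild type and name no other treatment of it. It is itself a mutant, bred from the isolate QM6a for high cellulase output, and is known to carry a truncated cre1 and to lack a stretch of the QM6a genome. No strain was set against another: the transcriptome was described by which genes were abundant, which functions took the counts, and which described genes had none. Replicate spread is given as SD over the 3 libraries, and no test was run.

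To use cellulose, the fungus secretes cellulases that cut the chains into cellobiose and other short sugars, takes these up through membrane transporters or splits them with beta-glucosidases, and burns the glucose through glycolysis. Pyruvate can then enter the citric acid cycle through pyruvate dehydrogenase, or be turned into acetaldehyde by pyruvate decarboxylase and into ethanol by alcohol dehydrogenase. Cellulase and xylanase genes are switched on by the transcription factor Xyr1 and repressed on glucose by Cre1.

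The libraries held 13248683, 12830786 and 12399135 counts over 10348 gene models. Counts were found for 9722, 9691 and 9638 genes. Pairs of libraries correlated across genes with a Pearson r of 0.989 to 0.993 on log2(FPKM + 1), genes not being independent replicates, and no pair was close enough to be 1 library deposited again, with a chi-square per gene of 13.1 to 32.3. That value takes reads as independent molecules and covers counting noise only. The labels do not say whether the 3 libraries came from separate cultures, so the SD may be technical. Levels of different genes are compared as FPKM, fragments scaled by gene length and library, and shares of a library are shares of counts unless FPKM is named. Of all genes, 8484 had a mean FPKM of 1 or more, 4935 of 10 or more, 1024 of 100 or more and 105 of 1000 or more, and the median was 8.99 FPKM.

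The label of mycelium on cellulose was set against marker genes, with no other growth condition to compare with. The cellobiohydrolase gene cel7a had 4821, 5096 and 6277 FPKM, and the other cellulases are given below. The conidiation and mating list had 5 genes between 0.435 and 15.2 FPKM on average, 2 of them above the median of all genes, and 0.00568% ± 0.00059 of counts (SD, n = 3), or 0.0142% when genes that also match another list were added. Among those 5, the mating type gene mata1 had 13.7, 14.2 and 16.9 FPKM, and a mating pheromone precursor gene, TRIREDRAFT_104292, had 0.790, 0.161 and 0.352 FPKM. The hydrophobins, surface proteins of aerial hyphae and spores, form a list of their own and are described below. Of their 4 genes, 2 averaged 1000 FPKM or more, with hfb2 at 5017 FPKM, and 1 had no counts. The markers chosen for spores and aerial hyphae, hydrophobins included, were therefore not low throughout. Whether the hydrophobin transcripts came from such cells was not tested.

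Abundance was concentrated in few genes. In libraries 1, 2 and 3, 15.2%, 15.8% and 16.5% of counts fell on the top 10 genes by count, and 41.5%, 42.8% and 44.2% on the top 100. It took 194, 172 and 157 genes to reach 50% of the counts. On the FPKM scale, which corrects for gene length, the top 10 took 20.7% ± 0.96 of the summed values (SD, n = 3).

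The most abundant transcript by FPKM belonged to a gene that the deposited table describes only as a predicted protein. TRIREDRAFT_110879, a 267-base gene model on the plus strand, had 71540, 64936 and 80115 FPKM, a mean of 72197 ± 7610 (SD, n = 3). Its range lay above that of every other gene. TRIREDRAFT_1818 came next with 11382, 14837 and 14910 FPKM, also described only as a predicted protein, and the ratio of the first to the second was 5.35 ± 0.96 (SD, n = 3). The library protocol selected fragments of 370 to 420 bases. An FPKM of a gene of 267 bases is therefore less certain than that of a longer gene. Shorter than 370 bases were 2 of the 25 most abundant genes and 15 of the 100 most abundant, against 527 of all 10348 genes. By counts, which do not correct for length, TRIREDRAFT_110879 ranked 3rd with 2.19% ± 0.21 of the library.

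Most of the order below the first gene was not fixed by these libraries. Of the 24 neighbouring pairs among the 25 genes with the highest mean FPKM, 23 had overlapping ranges and 8 kept the same order in all 3 libraries. The exception in range was the pair of TRIREDRAFT_110879 and TRIREDRAFT_1818. None of the 25 overlapped another gene model in the deposited coordinates, and 20 of them were also among the 25 genes with most counts.

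**Figure D1:**
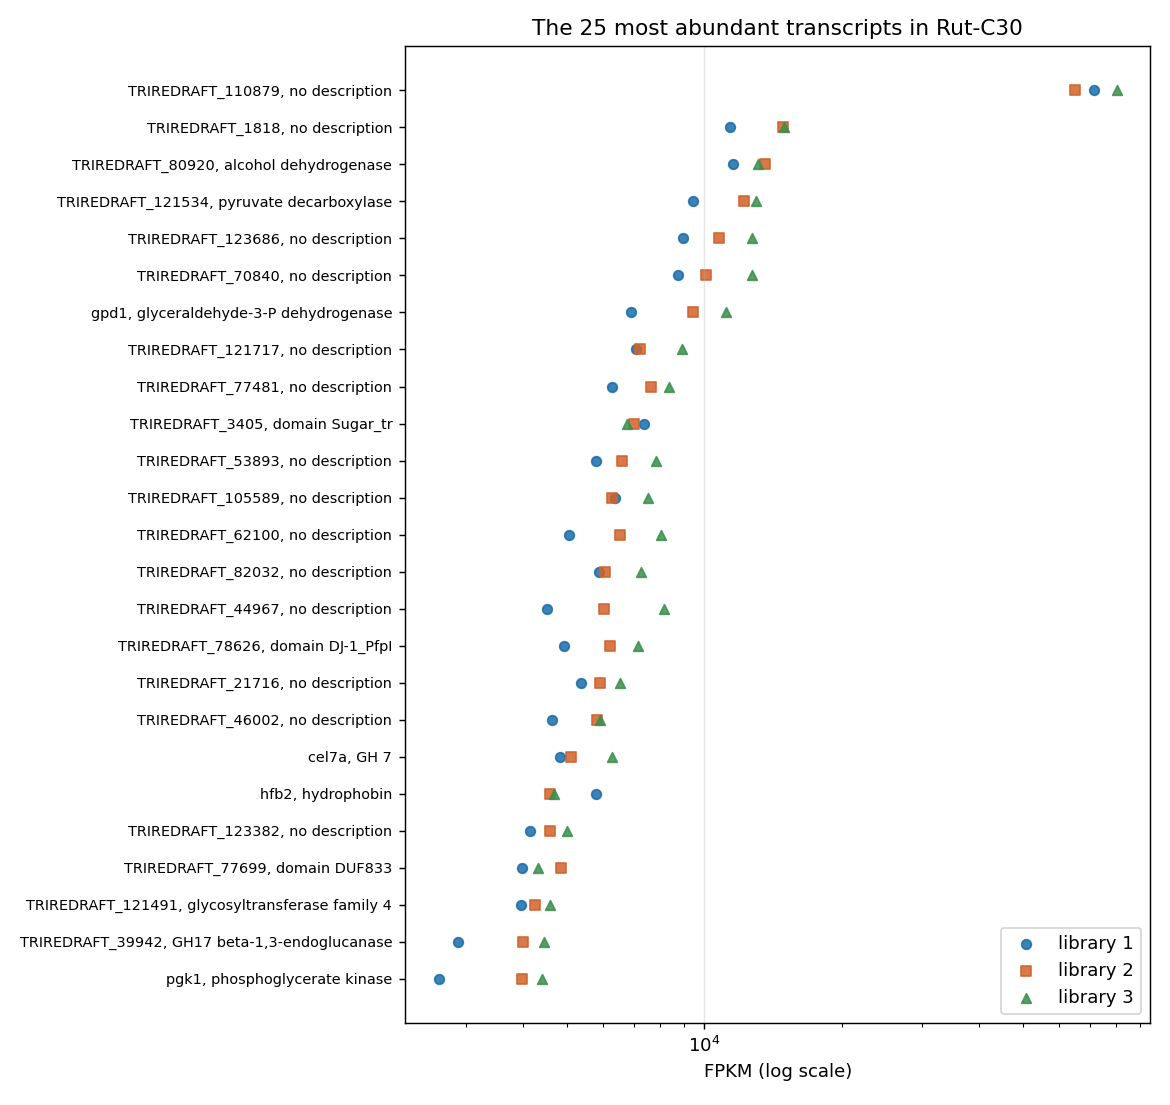
FPKM (log axis) of the 25 genes with the highest mean in Rut-C30, from the highest at the top, with 1 point for each of the 3 libraries. TRIREDRAFT_110879 stands apart at 64936 to 80115 FPKM, while the points of most neighbours overlap, and library 3 lies to the right for many genes.

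Of these 25 genes, 17 had no informative description and 8 had one. The 8 were alcohol dehydrogenase TRIREDRAFT_80920, pyruvate decarboxylase TRIREDRAFT_121534, gpd1, cel7a, hfb2, a glycosyltransferase of family 4 (TRIREDRAFT_121491), a beta-1,3-endoglucanase of family GH17 (TRIREDRAFT_39942) and pgk1. The glycosyltransferase, an enzyme class that attaches sugars, had 3953, 4253 and 4586 FPKM. Domain names were given for 3 of the 17 undescribed genes: TRIREDRAFT_3405 with the sugar transporter domain Sugar_tr, TRIREDRAFT_78626 with the DJ-1_PfpI domain, and TRIREDRAFT_77699 with the domain DUF833 of unknown function. The other undescribed genes of the top 10, TRIREDRAFT_123686, TRIREDRAFT_70840, TRIREDRAFT_121717 and TRIREDRAFT_77481, averaged 10820, 10524, 7752 and 7429 FPKM. In 8 more, TRIREDRAFT_53893, TRIREDRAFT_105589, TRIREDRAFT_62100, TRIREDRAFT_82032, TRIREDRAFT_44967, TRIREDRAFT_21716, TRIREDRAFT_46002 and TRIREDRAFT_123382, means ran from 4576 to 6734 FPKM.

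Most of the transcriptome was undescribed at any rank. The 8659 gene models without an informative description, 83.7% of the table, took 67.5% of the counts and 73.4% of the summed FPKM. Their median was 7.73 FPKM, against 19.8 FPKM for the 1689 described genes. Of the described genes 16.8% reached 100 FPKM, and of the undescribed genes 8.55%. Among the 100 most abundant genes 64 were undescribed, and the median length of the 100 was 887 bases, against 1299 bases for all genes. The 1228 gene models that carry no NCBI identifier took 3.87% of the counts.

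With each gene placed in the first list it matched, fermentation and acetate metabolism took the largest share of counts among functional lists made from the descriptions. Its share was 4.22%, 4.79% and 4.66% in libraries 1, 2 and 3. When a gene counted in every list it matched, other glycoside hydrolases rose from 0.295% to 5.02%, above fermentation at 4.56%. Nearly all of the fermentation share came from a pair of genes, which made up 96.1% of the list. Pyruvate decarboxylase TRIREDRAFT_121534 had more counts than any other gene of the parent, 322629, 371856 and 362029, or 2.75% ± 0.27 of the library (SD, n = 3). It had 9439, 12195 and 12987 FPKM. Alcohol dehydrogenase TRIREDRAFT_80920, with the ADH_N domain, had 11554, 13560 and 13103 FPKM. Their FPKM ranges overlapped. Pyruvate decarboxylase was lowest in library 1 both as FPKM and as a share of counts. Alcohol dehydrogenase was lowest in library 1 as FPKM but, at 1.59%, 1.72% and 1.57% of counts, lowest in library 3 by share.

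The remaining 14 fermentation genes were far lower, and the median of the 16 was 14.8 FPKM. The second pyruvate decarboxylase gene, TRIREDRAFT_59267, had 0.137, 0.0768 and 0.168 FPKM. The alcohol dehydrogenase gene TRIREDRAFT_68590 had 9.48, 9.29 and 8.91 FPKM, so that the ratio of TRIREDRAFT_80920 to it was 1383 ± 142 (SD, n = 3), and TRIREDRAFT_69956 had 0, 0 and 0.0759 FPKM. A lactate dehydrogenase-like gene, TRIREDRAFT_122010, had 330, 327 and 353 FPKM. For the onward route from acetaldehyde, the highest aldehyde dehydrogenase gene, TRIREDRAFT_78683, had 330, 275 and 258 FPKM, and acs1, which makes acetyl-CoA from acetate, had 212, 232 and 227 FPKM. The other route from pyruvate was lower: the E1 alpha subunit gene of pyruvate dehydrogenase, TRIREDRAFT_122987, had 108, 120 and 114 FPKM, and pyruvate decarboxylase exceeded it by a ratio of 101 ± 13.3 (SD, n = 3). That subunit gene was picked for this ratio after its values were seen.

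Glycolysis, with 11 genes, took 1.87%, 2.34% and 2.50% of counts and had a median of 174 FPKM. Its lower steps led. The glyceraldehyde-3-phosphate dehydrogenase gene gpd1 had 6895, 9456 and 11175 FPKM, the phosphoglycerate kinase gene pgk1 had 2616, 3986 and 4403 FPKM, and the enolase gene eno1 had 1282, 1529 and 1547 FPKM. All 3 were lowest in library 1 as FPKM and as a share of counts. Library 3 was highest on both scales for gpd1 and pgk1, whereas eno1, at 0.241%, 0.264% and 0.253% of counts, was highest in library 2 by share. The upper steps were lower, with the fructose bisphosphate aldolase gene TRIREDRAFT_23200 at 345, 371 and 342 FPKM and hexokinase TRIREDRAFT_79677 at 173, 175 and 174 FPKM. The 6-phosphofructokinase-like gene TRIREDRAFT_2091 had 15.5, 20.2 and 17.1 FPKM. Between them, gpd1 and pgk1 took 80.9% of the list.

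The citric acid and glyoxylate cycle list, which also holds phosphoenolpyruvate carboxykinase, took 0.695% ± 0.046 of counts over 27 genes (SD, n = 3), with a median of 105 FPKM and 26 members above the median of all genes. Phosphoenolpyruvate carboxykinase, an enzyme of gluconeogenesis (TRIREDRAFT_124115), led with 585, 563 and 561 FPKM. Isocitrate lyase, the entry of the glyoxylate cycle (acu3), had 496, 484 and 486 FPKM, above the citrate synthase gene cit1 at 115, 146 and 164 FPKM. In the pentose list of 11 genes, ribose-5-phosphate isomerase TRIREDRAFT_120267 had 1009, 1075 and 1065 FPKM. Lxr1, also placed in that list, had 978, 1056 and 1049 FPKM and the D-xylose reductase gene xyl1 had 379, 403 and 505 FPKM. Respiration was represented by 7 described genes, led by the adenine nucleotide translocator TRIREDRAFT_121834, which exchanges ADP and ATP across the mitochondrial membrane, at 1450, 1407 and 1573 FPKM.

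**Figure D2:**
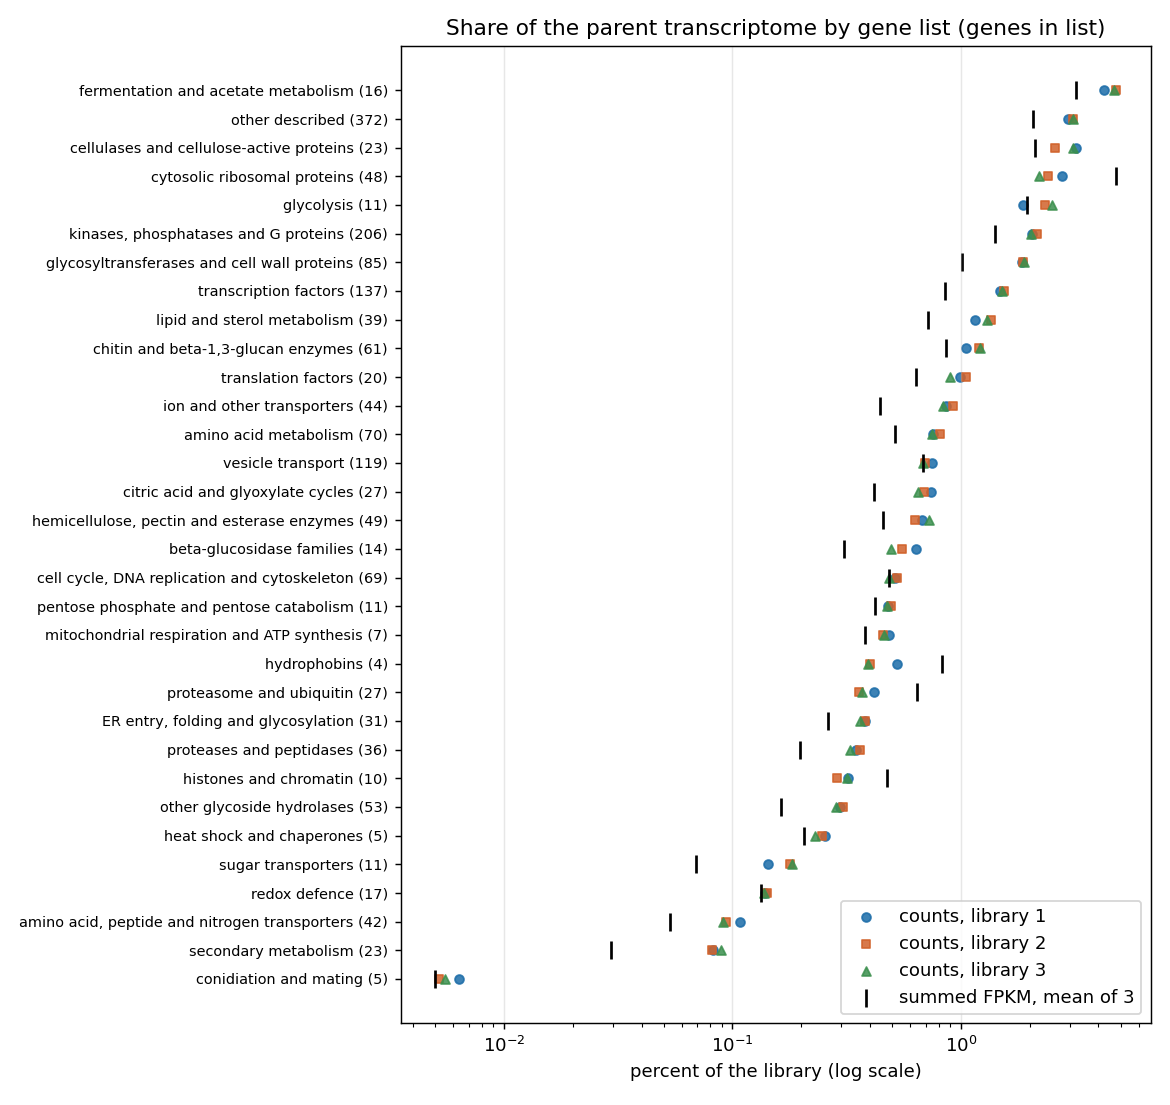
Percent of each library (log axis) taken by each gene list in Rut-C30, as counts in the 3 libraries (coloured points) and as mean share of summed FPKM (black tick), with the number of genes in brackets. With each gene placed in the first list it matched, fermentation leads the functional lists by counts at 4.22% to 4.79%, and ribosomal proteins lead by FPKM at 4.75%.

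The 23 genes of the cellulase list took 3.18%, 2.59% and 3.09% of counts, with cel7a alone giving 39.1% and cel7a with the GH6 gene TRIREDRAFT_72567 giving 60.9% of it. GH6 and GH7 are the families of the cellobiohydrolases, which release cellobiose from the ends of cellulose chains. TRIREDRAFT_72567 had 3430, 2755 and 3617 FPKM, lower than cel7a in each library by a ratio of cel7a to it of 1.41, 1.85 and 1.74. The endoglucanase genes, whose products cut inside the chain, were spread over a wide range. Cel5a had 1634, 1237 and 1465 FPKM, the GH45 gene TRIREDRAFT_49976 had 579, 419 and 591 FPKM, and cel12a had 381, 209 and 292 FPKM. Cel7b, of the same family as cel7a, had 285, 207 and 281 FPKM, and the ratio of cel7a to cel7b was 21.3 ± 4.0 (SD, n = 3).

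Abundant members were also found among lytic polysaccharide monooxygenases and among proteins that loosen or bind cellulose. The lytic polysaccharide monooxygenase genes cel61b and cel61a had 1987, 1485 and 1912 FPKM and 1171, 880 and 1077 FPKM. An expansin gene, TRIREDRAFT_123992, had 1158, 1030 and 1379 FPKM. The genes cip1 and cip2, whose proteins carry a cellulose-binding module, had 1016, 816 and 1048 FPKM and 181, 116 and 158 FPKM. As a share of counts, the 11 cellulase genes given so far were all lowest in library 2, cel7a with 1.12%, 1.09% and 1.27%; as FPKM, cel7a was lowest in library 1 and the other 10 in library 2. Of the 23 members 12 reached 100 FPKM, 6 reached 1000, and 17 lay above the median of all genes. At the low end, the GH61 gene TRIREDRAFT_27554 averaged 1.10 FPKM, the GH5 gene TRIREDRAFT_71554 had 0, 0.0478 and 0 FPKM, and the GH5 gene TRIREDRAFT_64906 and the expansin gene TRIREDRAFT_104079 had no counts.

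Beta-glucosidases, which split cellobiose into glucose, took 0.559% ± 0.071 of counts over 14 genes of families GH1 and GH3 (SD, n = 3). Cel1a, an intracellular enzyme, had 1839, 1601 and 1456 FPKM and gave 64.2% of the list. Cel1b, also intracellular, had 249, 258 and 264 FPKM. The highest GH3 gene, TRIREDRAFT_121127, had 247, 305 and 299 FPKM. Cel3a, the main secreted beta-glucosidase of the species, had 46.4, 32.4 and 44.3 FPKM, and cel1a exceeded it by a ratio of 40.6 ± 8.4 (SD, n = 3). Cel3c and cel3b averaged 49.2 and 27.2 FPKM, and the lowest member, TRIREDRAFT_58450, averaged 0.0375 FPKM.

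The list of hemicellulose, pectin and esterase enzymes was larger, at 49 genes, but took 0.677% ± 0.047 of counts (SD, n = 3), with a median of 6.14 FPKM, below that of all genes. Its leading members were the GH74 gene TRIREDRAFT_49081, of the xyloglucanase family, at 682, 727 and 948 FPKM and the GH11 gene TRIREDRAFT_123818, of a xylanase family, at 634, 696 and 835 FPKM. The GH10 gene TRIREDRAFT_120229, of another xylanase family, had 391, 314 and 381 FPKM. The mannanase gene man5a had 263, 154 and 232 FPKM, also lowest in library 2. Of the 49 members 9 reached 100 FPKM, 13 were under 1 FPKM and 5 had no counts. In sum, the 3 lists of enzymes acting on cellulose, hemicellulose and beta-glucosides took 4.49%, 3.77% and 4.31% of counts.

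**Figure D3:**
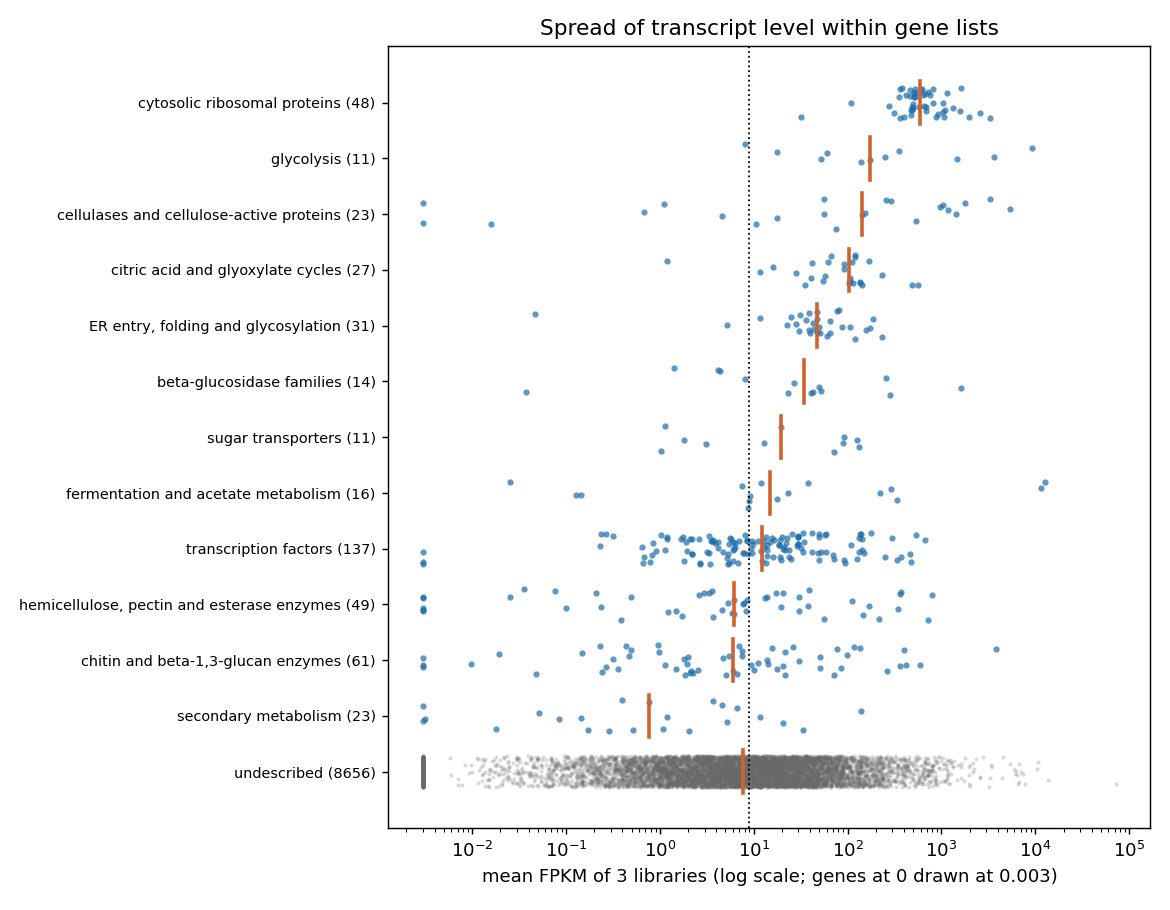
Mean FPKM (log axis) of each member of 13 gene lists in Rut-C30, 1 point a gene, with the list's median as an orange bar and the median of all genes, 8.99 FPKM, as a dotted line. All 48 ribosomal protein genes lie to the right of that line, while the hemicellulose enzymes scatter on both sides with a median of 6.14 FPKM.

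Other secreted and surface proteins included both highly transcribed and silent members. Of the 4 hydrophobin genes, hfb2 had 5793, 4578 and 4681 FPKM and hfb3 had 1451, 1356 and 1467 FPKM, a ratio of 3.52 ± 0.42 (SD, n = 3), while TRIREDRAFT_106538 had 19.1, 17.7 and 21.9 FPKM and hfb1 had no count in any library. Chitin and beta-1,3-glucan enzymes, which act on the fungal cell wall, took 1.15% ± 0.084 of counts over 61 genes, or 0.545% with the list patterns as first written, before they were corrected. The GH17 gene TRIREDRAFT_39942 alone, at 2884, 3999 and 4445 FPKM, gave 45.7% of that. The chitinase gene chi18-2 had 555, 594 and 619 FPKM and nag2, of the GH20 family, had 354, 370 and 473 FPKM, and chi18-1 had no counts. Among 36 protease genes, the serine protease-like gene TRIREDRAFT_123244, with a Peptidase_S8 domain, led at 537, 586 and 564 FPKM, and 2 members reached 100 FPKM.

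Genes of the secretion route were mostly above the median of all genes. Described genes as a whole had a higher median, 19.8 FPKM, and that of the vesicle transport list was close to it at 21.6 FPKM. The list of ER entry, folding and glycosylation took 0.373% ± 0.011 of counts over 31 genes (SD, n = 3), with a median of 47.5 FPKM, a range of 0.0463 to 231 FPKM and 29 members above the median of all genes. Bip1, the HSP70 chaperone of the ER, had 222, 223 and 247 FPKM. Protein disulfide isomerase pdi1 had 158, 204 and 203 FPKM, and the sec61 alpha subunit gene of the translocation channel, TRIREDRAFT_121397, had 88.3, 122 and 111 FPKM. The unfolded protein sensor gene ire1 had 76.1, 79.8 and 75.7 FPKM. Vesicle transport, with 119 genes of which 95 were above that median, took 0.708% ± 0.036 of counts, led by sar1, the GTPase of vesicles leaving the ER, at 662, 540 and 658 FPKM, and by the synaptobrevin gene snc1 at 555, 485 and 706 FPKM. Neither of the pair of lists had a member at 1000 FPKM.

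Cytosolic ribosomal proteins took 2.76%, 2.40% and 2.21% of counts and a larger share of the length-corrected scale, 4.75% ± 0.60 of summed FPKM (SD, n = 3). The levels were high throughout: the median of the 48 genes was 585 FPKM, 47 reached 100 FPKM, and the lowest, an L33 gene (TRIREDRAFT_124339), averaged 32.1 FPKM. The highest were rps30 with 3990, 3033 and 2836 FPKM over 189 bases and a gene model for L41, without an NCBI identifier, with 3389, 2547 and 1884 FPKM. Rps29, of 171 bases, had 2120, 1484 and 1118 FPKM, whereas rpl5, of 1005 bases, had 466, 461 and 461 FPKM. Rps30 and rps29 are shorter than the selected fragments, so their FPKM is less certain, as is the list's share of summed FPKM. The share of counts was highest in library 1, where the glycolysis share was lowest. Translation factors took 0.979% ± 0.080 of counts over 20 genes, of which the elongation factor gene tef1a, at 2127, 2404 and 2171 FPKM, gave 46.1%.

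Among transporters that carry a description, those of sugars were modest. The 11 described sugar transporters took 0.144%, 0.178% and 0.182% of counts, with hxt1 at 80.4, 147 and 170 FPKM and the hexose transporter TRIREDRAFT_104072 at 124, 122 and 131 FPKM. Domain names widened the view, since 64 genes carry Sugar_tr and 50 of them are undescribed. The 64 took 1.87% ± 0.11 of counts, and TRIREDRAFT_3405 gave 71.7% of their summed FPKM at 7366, 7026 and 6753 FPKM. The next of the 64, TRIREDRAFT_50618, named after its values were seen, had 302, 376 and 375 FPKM, a ratio of 20.3 ± 3.5 between the pair. The sugar carried by either is not given in the files. The MFS_1 domain was found in 162 genes, 160 of them undescribed, with a median of 4.24 FPKM, 10 members without counts and a highest member, TRIREDRAFT_79202, at 1937, 1966 and 2081 FPKM.

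Amino acid, peptide and nitrogen transporters took 0.0974% ± 0.0089 of counts over 42 genes, or 0.154% when genes that also match another list were added. None of the 42 averaged 100 FPKM or more. The highest of the 42 was a gaba permease gene, TRIREDRAFT_72922, at 99.3, 46.3 and 54.8 FPKM, highest in library 1. Domain names pointed to higher genes outside the 42, named here after their values were seen. The AA_permease domain was found in 17 genes, 6 of them undescribed, led by inda1 at a mean of 411 FPKM. The OPT domain was found in 12 genes, 10 of them undescribed, led by TRIREDRAFT_120017 at a mean of 288 FPKM. The list therefore does not show that all such transporters were low. Ion and other transporters took 0.872% ± 0.047 of counts over 44 genes, or 1.37% with genes that also match another list. The 44 were led by the cation transporter-like gene TRIREDRAFT_119822 at 967, 1141 and 937 FPKM, which the table assigns the kinase domain Pkinase, and the cation transporting ATPase TRIREDRAFT_75347 at 347, 479 and 437 FPKM.

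Transcription factor genes took 1.51% ± 0.032 of counts over 137 genes, with a median of 12.3 FPKM, or 0.778% of counts with the list patterns as first written. The cellulase activator gene xyr1 had 309, 351 and 358 FPKM. The repressor genes cre1 and ace1 had 266, 223 and 266 FPKM and 102, 141 and 133 FPKM. The ratio of xyr1 to cre1 was 1.36 ± 0.21 and that of xyr1 to ace1 was 2.73 ± 0.28 (SD, n = 3 each), so xyr1 exceeded both in every library. Cre1 is known to be truncated in Rut-C30, and a single value per gene does not show which part of cre1 the reads came from. The ratios compare RNA levels only. The pacC gene of the response to pH, TRIREDRAFT_120698, had 280, 405 and 422 FPKM. Higher than all of these was TRIREDRAFT_49232, whose description names a binuclear zinc cluster and whose domain is given as Fungal_trans, at 619, 678 and 701 FPKM. Of the CCAAT-binding complex, hap2 and hap3 averaged 21.8 and 29.7 FPKM and hap5 had no counts. Among signalling genes, the kinase gene snf1 had 485, 528 and 464 FPKM and calmodulin, cam1, had 326, 306 and 343 FPKM.

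Secondary metabolism was low. Its 23 genes took 0.0842% ± 0.0041 of counts, or 0.0552% with the first patterns, with a median of 0.770 FPKM, 12 members under 1 FPKM and 2 without counts. The exception was an ornithine monooxygenase gene, TRIREDRAFT_23368, at 96.0, 140 and 186 FPKM, of the enzyme class that starts the making of hydroxamate siderophores, the iron carriers of fungi. A non-ribosomal peptide synthetase gene described as a siderophore synthetase, TRIREDRAFT_69946, averaged 11.6 FPKM, and the highest polyketide synthase gene, TRIREDRAFT_106272, averaged 5.24 FPKM. Cytochrome P450 domains, p450, were found in 71 genes with a median of 2.07 FPKM. In lipid metabolism, a squalene monooxygenase-like gene, TRIREDRAFT_121230, gave 65.9% of the counts of its list of 39 genes at 2943, 3974 and 4065 FPKM. Squalene monooxygenase acts early in ergosterol synthesis, and the next sterol gene, lanosterol 14-alpha demethylase TRIREDRAFT_75468, had 259, 298 and 322 FPKM.

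No count in any of the 3 libraries was found for 439 genes, 4.24% of the table. With 38478604 counts over the libraries, a count of 0 allows a level of up to 0.0780 CPM by the limit of 3 counts, which covers counting error only. Of the 439 genes 40 carried a description, 2.37% of all described genes, against 4.61% of the undescribed genes. Poly-A counts do not tell a gene missing from the genome from one that is not transcribed.

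Of the 40 silent described genes, 11 were among the 372 genes that carry a description but match no functional list. The others were spread over functional lists. Without counts were 5 of 49 hemicellulose, pectin and esterase genes, 5 of 53 other glycoside hydrolase genes, 3 of 61 chitin and beta-1,3-glucan genes, 2 of 23 cellulase genes, 4 of 206 kinase, phosphatase and G protein genes and 3 of 137 transcription factor genes. Among the plant wall enzymes were the GH28 genes TRIREDRAFT_70186 and TRIREDRAFT_122780, the GH79 gene TRIREDRAFT_71394 and the GH78 gene TRIREDRAFT_58887. The chitin and glucan genes were chi18-1, a further GH18 gene (TRIREDRAFT_67678) and a GH64 gene (TRIREDRAFT_123639). A terpene synthase gene, TRIREDRAFT_112028, a trichodiene synthase gene, TRIREDRAFT_106486, and the PTH11-type receptor genes TRIREDRAFT_111861 and TRIREDRAFT_41260 were also without counts.

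Silence was clustered along the scaffolds in places. Runs of 3 or more neighbouring genes without counts numbered 13 and held 74 genes. The longest held 29 genes, from position 247 to position 85537 of the scaffold that carries gld1 (coordinates of the deposited table, build not stated), starting with the first of the 256 genes on that scaffold. The next longest run held 5 genes. In the long run were 8 described genes: gld1, a glycerol dehydrogenase gene, TRIREDRAFT_65215 of esterase family 4, TRIREDRAFT_64906 of GH5, TRIREDRAFT_122780 of GH28, TRIREDRAFT_64971, an amino acid transporter, TRIREDRAFT_71823, a transcription factor, TRIREDRAFT_25224 of GH65, and TRIREDRAFT_65172, a polyketide synthase.

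Beyond the run, counts resumed within 2 genes. The first gene after it, TRIREDRAFT_64996, had 2, 1 and 5 counts. The one after it, TRIREDRAFT_122783, which carries a zinc cluster domain, had 828, 706 and 570 counts, or 34.1, 32.6 and 28.8 FPKM, and the third, a model without an NCBI identifier or description, had 126, 116 and 107 FPKM. Rut-C30 is known to lack a stretch of the QM6a genome; whether the run of 29 genes is that stretch was not tested.

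**Figure D4:**
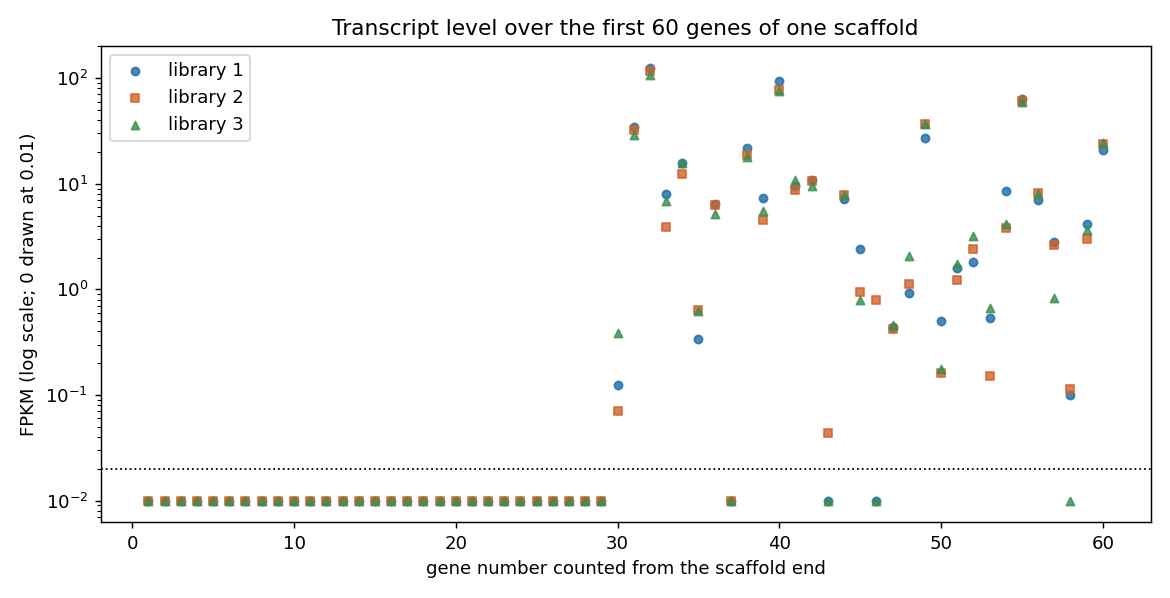
FPKM (log axis, with 0 drawn at 0.01 under the dotted line) of the first 60 genes of the scaffold that carries gld1, in order from its end, 1 point for each of the 3 libraries. The first 29 genes are at 0 in every library, and those after it range between 0 and over 100 FPKM.

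The 3 libraries differed in ways that touched the leading lists. Of the 1024 genes with a mean of 100 FPKM or more, 550 were highest in library 3, 273 in library 1 and 201 in library 2, and 569 were lowest in library 1. Deposited FPKM summed to 749340, 774422 and 841244, so part of that order is in the scaling. Shares of counts do not depend on that scaling, and there too library 1 had the lowest fermentation and glycolysis shares and the highest ribosomal and hydrophobin shares.

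Low genes varied most between libraries. Variation was computed on deposited FPKM, so it includes differences in scaling between libraries as well as in shares of counts. The same holds for the SD of FPKM. The median coefficient of variation was 47.3% for genes between 0.1 and 1 FPKM, 17.6% between 1 and 10, 11.1% between 10 and 100, 11.2% between 100 and 1000 and 13.4% at 1000 or more. Among genes of 100 FPKM or more, the most variable was an undescribed gene, TRIREDRAFT_111027, at 328, 114 and 82.2 FPKM. Env1, which codes for the light response protein ENVOY, followed with 115, 155 and 313 FPKM, highest in library 3. The other 3 of the most variable 5, TRIREDRAFT_103498, TRIREDRAFT_34327 and a model without an NCBI identifier, all undescribed, were highest in library 1.

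**Figure D5:**
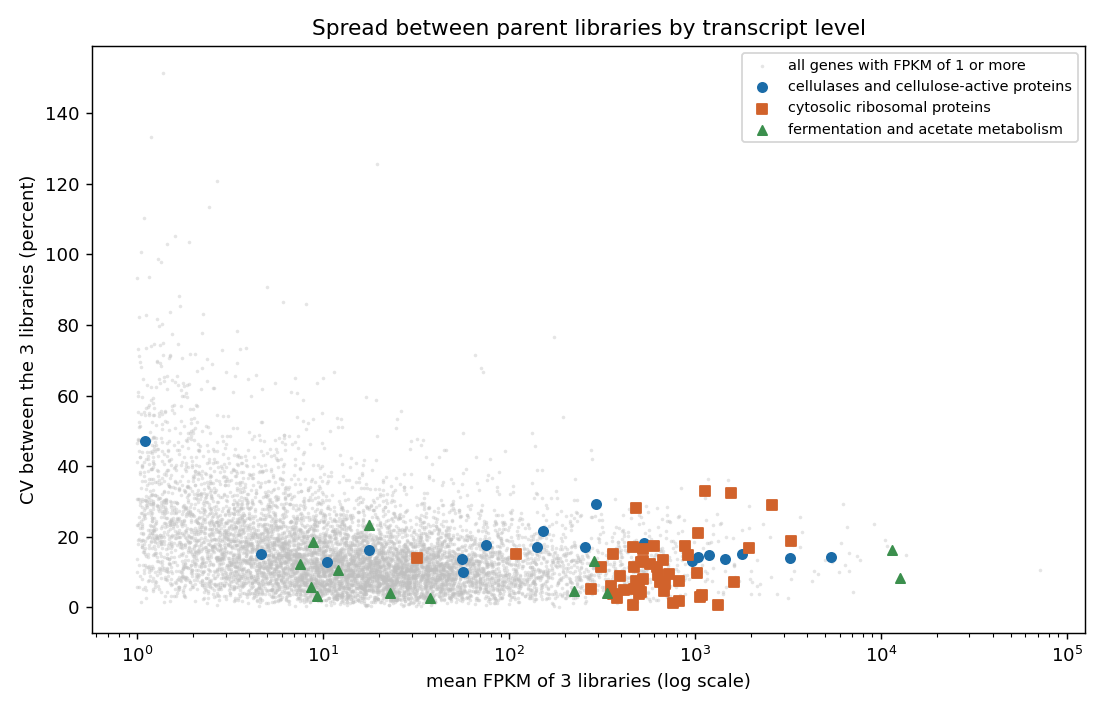
Coefficient of variation between the 3 Rut-C30 libraries against mean FPKM (log axis), 1 point a gene, for genes with a mean of 1 FPKM or more, with cellulase, ribosomal protein and fermentation genes coloured. The median is 11.2% for genes between 100 and 1000 FPKM, and 13.4% at 1000 FPKM or more. The values include differences in FPKM scaling between libraries.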

How the data were processed

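Gene counts and FPKM of the 3 Rut-C30 libraries were taken from the tables the authors deposited. HISAT2 2.0.5 and featureCounts 1.5.0-p3 are the tools named, per the submitters' processing notes. The genome build is not given in the sources used here. Each deposited FPKM equals the count per kilobase of gene over 1 constant per library, which is not the library total. FPKM and counts are therefore not independent. Per the labels' protocols, poly-A RNA was used, with no step that marks strand, which makes genes that overlap or resemble each other uncertain. Library totals are given with the results.

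From these tables, genes were ranked by mean FPKM, and shares of counts, medians and SD were computed over the 3 libraries with Python 3.11.15, pandas 2.3.3 and numpy 2.4.6. Genes were put in 31 lists by patterns matched to the deposited descriptions. A gene matching several counts in the first. Members and lists were chosen with earlier results of these data known. The patterns were corrected after the descriptions and values had been seen, because the first ones misplaced genes, and 386 genes changed list. The 3 genes without an informative description (bip1, atp2 and skp1) that fell in a list were placed by their symbol. The domain names come from a column of the deposited table. Of 9120 NCBI identifiers, 9116 were found in a reference gene table. Genes named were the 25 highest by mean FPKM, the highest 4 and the lowest of each list, cellulases and regulators with a symbol (of which ace3, hac1, lae1 and vel1 gave no match, and 1 is not reported here), described genes without counts, and the 5 most variable at 100 FPKM or more; others are marked or were chosen after their values were seen. The share computation was tested on simulated data. Alternatives were TPM, the median of 3 libraries, other list assignments and leaving out each library.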

Additional observations from a re-analysis of the deposited data

How the results depend on the processing

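The 10 most abundant genes took 20.7% of summed FPKM in place of 15.8% of counts, and 15.5% to 16.2% of counts when 1 library was left out. As a share of summed FPKM, the lists took 2.12% (cellulases), 0.309% (beta-glucosidases), 0.454% (hemicellulose and pectin enzymes), 4.75% (ribosomal proteins), 3.20% (fermentation), 0.0696% (sugar transporters) and 73.3% (undescribed genes), and FPKM puts ribosomal proteins above fermentation. With the 10 genes with most counts left out of numerator and denominator, the shares were 2.13%, 0.664%, 0.805%, 2.91%, 0.209%, 0.200% and 70.5% in the same order, and glycolysis took 1.21%. The list patterns as first written, an alternative added after seeing the data, gave 3.32% for cellulases and 0.756% for hemicellulose and pectin enzymes. Leaving out 1 library gave 2.84% to 3.14% for cellulases, 4.44% to 4.72% for fermentation, 2.11% to 2.42% for glycolysis and 2.30% to 2.58% for ribosomal proteins, and 505 to 527 genes without counts. Genes without counts numbered 439, genes with at most 3 counts over the libraries 691, and genes under 0.1 mean FPKM 721, while the longest run held 29 genes under each of these settings. Ranking by TPM kept 24 of the 25 most abundant genes, and by the median of the libraries all 25. For the 25 other lists the share moved by more than 1 SD in 24 as summed FPKM, in 25 without the 10 genes, in 15 of 23 with the first patterns and in 8 when a gene counted in every list it matched. No paired analysis was possible because no groups were compared. Depth limits the silent genes: 252 further genes had 1 to 3 counts over the 3 libraries.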

Other observations

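Housekeeping genes outside the main lists were carried by few members. Histone genes were high, with hh3 at 1125, 1259 and 1612 FPKM, hh2a at 534, 502 and 555 FPKM and hh2b at 411, 477 and 483 FPKM. Of the ubiquitin fusions, rpl40 had 1725, 1475 and 1713 FPKM and rps31 had 1433, 1453 and 1355 FPKM, and the polyubiquitin gene ubi4 had 651, 506 and 659 FPKM. A cytoplasmic cyclophilin gene, TRIREDRAFT_121977, of a family of folding helpers, had 866, 927 and 875 FPKM. In amino acid metabolism, an aminotransferase gene, TRIREDRAFT_74725, at 1415, 1679 and 1782 FPKM, gave 31.9% of the counts of 70 genes.

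Among domains, undescribed genes led several families, named here after their values were seen. TRIREDRAFT_55362 led the 11 genes with the HSP70 domain at 1035, 1092 and 1436 FPKM, above bip1 in each library. TRIREDRAFT_22925 led the 89 genes with the Zn_clus domain at 640, 980 and 828 FPKM, above xyr1 in each library. TRIREDRAFT_57735 led the 6 genes with the GATA domain at 1019, 1240 and 1699 FPKM.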
